A study of Mus musculus with 24 samples.

Results

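Omega-3 fat was compared with saturated fat in inguinal white adipose tissue (iWAT, the subcutaneous fat pad of the groin) of mice lacking LPCAT3. The comparison rested on 8 of the 24 bulk RNA-seq libraries of the study, 4 from knockout mice on the omega-3 enriched diet (KO n3) and 4 from knockout mice on the saturated fat enriched diet (KO SFA), chosen by their labelled genotype and diet. Male mice aged 18 to 22 weeks were used throughout, and every diet took 60% of its calories from fat. No group ate a low-fat diet. The knockout is labelled AdL3KO. The labels give neither the construct behind it nor the cells in which it acts. Wild-type mice on the same diets (WT n3 and WT SFA, 4 libraries each) were set beside the knockout, and the omega-6 groups entered the fit but are not described.

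LPCAT3 sits in the endoplasmic reticulum and places polyunsaturated fatty acids, above all arachidonic and linoleic acid, on lysophospholipids. The saturation of that membrane bears on SREBP-1c and SREBP-2, transcription factors held in the endoplasmic reticulum that switch on genes of fatty acid and cholesterol synthesis once processed. Dietary polyunsaturated fat, omega-3 in particular, is known from liver to lower SREBP-1c activity and the expression of desaturases and lipogenic enzymes.

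The deposited values were estimated counts per gene, summing to 45960238 to 48831354 per KO n3 library and 54164790 to 57381890 per KO SFA library. The ranges of depth did not overlap, and the part of depth in the results was not tested. Scd1 took more counts than any other gene in every library, 6.83% to 7.46% in KO n3 and 8.97% to 9.65% in KO SFA. The 12 adipocyte markers were high and alike, with a mean log2 CPM of 9.97 to 10.31 in KO n3 and 9.99 to 10.17 in KO SFA. CPM is the usual depth-scaled count unit, here with TMM-adjusted library sizes. The title of the series speaks of mature adipocytes, but the labels describe no isolation of cells. Markers of macrophages, endothelium and stroma were present, and the libraries are read here as whole tissue. KO SFA replicate 1 stood apart in skeletal muscle markers (mean log2 CPM 2.23, against at most 0.77 in the other KO SFA libraries) and KO SFA replicate 2 in B cell markers (2.57, against at most 1.27). Counts are also given below without the 5 libraries of the series that stood high in either list, KO SFA replicates 1 and 2 among them, called marker-high here.

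Lpcat3 itself, on chromosome 6 (124663027 to 124704418, plus strand, GRCm38), had 58.9, 53.7, 61.3 and 59 CPM in KO n3 and 81, 73.8, 76.2 and 70.8 CPM in KO SFA. The groups did not overlap. Both lay below the WT n3 libraries (112 to 119 CPM) and the WT SFA libraries (97.8 to 129 CPM). The wild-type omega-6 group, at 66 to 72.9 CPM, overlapped KO SFA, so the level of Lpcat3 did not separate the genotypes across all diets. Knockout tissue thus kept transcript mapped to the gene. Lpcat3 was 22.8% lower on omega-3 than on saturated fat in knockout tissue (log2 fold change -0.37, SE 0.0612, adjusted p = 0.00224). The call held without any 1 of the 8 libraries. In wild-type tissue the same difference was -0.03 (SE 0.0599, adjusted p = 0.865), and the difference between the genotypes did not pass (-0.34, adjusted p = 0.0556). Exons of Lpcat3 overlap those of Emg1 on the opposite strand, and the sources used here do not say whether the counting used strand.

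Genes were called with edgeR's quasi-likelihood F test at an adjusted p (Benjamini-Hochberg over all 15259 genes tested) under 0.05. Omega-3 against saturated fat called 223 genes in the knockout, 1.46% of those tested: 126 (0.826%) higher and 97 (0.636%) lower in KO n3. Changes were small, with a median size of 0.373 on the log2 scale, or 1.3-fold, and 9 genes reached 2-fold. In 188 of the 223 the CPM of KO n3 and KO SFA did not overlap, as in 886 (5.81%) of all genes tested. The labels do not say whether the libraries came from separate animals, so p-values measure only the spread between these libraries.

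The contrast leaned on single libraries. Leaving out KO n3 replicate 4 gave 859 calls and leaving out KO SFA replicate 4 gave 423. Without KO n3 replicates 1, 2 and 3 the calls were 80, 109 and 201. Without KO SFA replicates 1, 2 and 3 they were 103, 208 and 103. On the first principal component of the 8 libraries (22.8% of the variance) KO n3 replicate 4 and KO SFA replicate 4 lay next to each other at 4.7 and 1.4. The other KO n3 libraries lay between -35.3 and -11.1, and the other KO SFA libraries between 10.6 and 22.1. In all 8 such fits, 66 of the 223 calls were kept (0.433% of genes tested), 33 higher and 33 lower. These 66 are called stable below, a word that covers leaving out 1 library and nothing else. Another 78 were kept in fewer than 4 fits, and no call turned its sign. The largest rises and falls named below were chosen among stable calls whose groups did not overlap. Neither trait is thus a finding for them. Without the marker-high libraries, which leaves 2 KO SFA libraries, 60 genes were called, 48 of them among the 223. A fit of the 8 libraries alone, with its own estimate of the spread, called 31 genes, 29 of them among the 223.

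**Figure D1:**
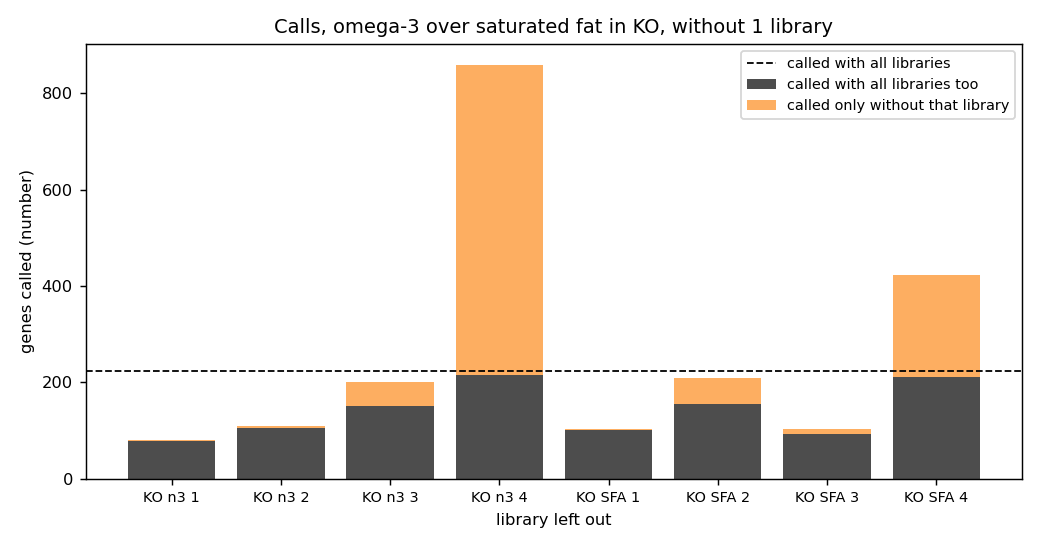
Number of genes called for KO n3 against KO SFA when 1 of the 8 libraries is left out, by library on the horizontal axis. Dark bars are genes also called with all libraries, orange bars genes called only without that library, and the dashed line marks the 223 calls with all libraries. The count runs from 80 without KO n3 replicate 1 to 859 without KO n3 replicate 4.

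Cholesterol synthesis was the list with the most falls. Of its 21 tested members 9 were lower in KO n3 and 0 higher, and 20 had a negative fold change. The median log2 fold change was -0.25, beside 0.0064 over all genes tested. The falls spanned the pathway. Acat2 acts at its start, and Pmvk, Idi1 and Fdps make and join the isoprenoid units. Sqle oxidises squalene, Lss closes the sterol ring, and Cyp51, Nsdhl and Hsd17b7 trim it. Fdps (farnesyl diphosphate synthase) had 157, 156, 166 and 142 CPM in KO n3 and 221, 199, 231 and 201 CPM in KO SFA (log2 fold change -0.46, SE 0.0636, adjusted p = 0.000393). Lss, lanosterol synthase, had 224, 213, 232 and 211 CPM in KO n3 and 332, 301, 310.2 and 290.1 CPM in KO SFA (-0.48, SE 0.0725, adjusted p = 0.000854). Hsd17b7 averaged 40.5 ± 3.19 CPM in KO n3 and 54.7 ± 4.34 CPM in KO SFA (SD, n = 4 each; -0.44, adjusted p = 0.00066). For these 3 genes each KO n3 library was below each KO SFA library. The calls of Sqle (-0.39), Pmvk (-0.40) and Idi1 (-0.35) were stable with those 3. Acat2 (-0.30), Nsdhl (-0.26) and Cyp51 (-0.31) passed but were kept in 5, 4 and 1 of the 8 fits. The number of members lower was 6 to 11 when single libraries were left out and 5 without the marker-high libraries.

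Hmgcs1, an early enzyme of the pathway and a target of SREBP-2, did not pass. It had 1075 ± 78 CPM in KO n3 and 1112 ± 38.4 CPM in KO SFA (adjusted p = 0.778). Among 20 tested genes of sterol sensing and uptake the median was 0.00 and 1 was called. It was Scarb1, the HDL receptor gene, at 157 ± 13.6 CPM in KO n3 and 186 ± 7.25 CPM in KO SFA (adjusted p = 0.038, kept in 2 of 8 fits). Insig1, which helps hold SREBP in the endoplasmic reticulum, did not pass (-0.12, SE 0.0844, adjusted p = 0.508). Transcripts of the factors themselves did not pass. Srebf1 was at 362 ± 12.7 CPM in KO n3 and 367 ± 36.4 CPM in KO SFA, and Srebf2 at 44.5 ± 0.913 CPM in KO n3 and 43.9 ± 3.61 CPM in KO SFA. Their differences were -0.02 (SE 0.0692) and 0.02 (SE 0.0462) on the log2 scale. The LXR targets Abca1 and Abcg1, which move cholesterol out of cells, differed by 0.07 (SE 0.0401) and 0.01 (SE 0.0525).

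Because 9 genes of a single pathway fell, the bases before their start sites were read in RefSeq (GRCm38.p6; 250 bases upstream, both strands). The CCAAT box, the letters bound by NF-Y, a factor known to act beside SREBP, was in 6 of the 7 lower cholesterol genes with an entry (85.7%). It was in 15 of 16 of all tested members of the list (93.8%) and in 40.2% of the 11467 tested genes with an entry. A sterol response element written as TCACNCCAC was in 0 of the 7, in 1 of the 16 (6.25%) and in 1.21% of all. These letters do not cover other forms of the element, and a match this rare carries no information when absent from 7 genes. The list as a whole carried the box whether or not a member fell. The stretches before Hsd17b7, Lss and Nsdhl are shown as examples of genes with a box upstream of the start in both RefSeq and GENCODE, which Pmvk has too. Of the 3 boxes of Hsd17b7 in the window searched, 2 lie in the stretch shown. They run 5′ to 3′ on the strand of the gene, stop before the GENCODE start, and have the box in capitals (ATTGG where it lies on the other strand). Hsd17b7 is on the minus strand at chr1:169969242-169969455, Lss on the plus strand at chr10:76531355-76531587 and Nsdhl on the plus strand at chrX:72918271-72918520.
Hsd17b7: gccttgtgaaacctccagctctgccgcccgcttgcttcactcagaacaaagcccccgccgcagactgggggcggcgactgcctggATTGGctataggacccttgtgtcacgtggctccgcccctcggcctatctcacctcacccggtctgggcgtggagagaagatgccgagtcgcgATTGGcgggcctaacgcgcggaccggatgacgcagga
Lss: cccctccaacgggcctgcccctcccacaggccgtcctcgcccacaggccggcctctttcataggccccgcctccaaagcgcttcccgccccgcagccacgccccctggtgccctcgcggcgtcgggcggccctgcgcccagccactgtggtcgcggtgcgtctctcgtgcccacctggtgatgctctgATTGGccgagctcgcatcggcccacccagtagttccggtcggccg
Nsdhl: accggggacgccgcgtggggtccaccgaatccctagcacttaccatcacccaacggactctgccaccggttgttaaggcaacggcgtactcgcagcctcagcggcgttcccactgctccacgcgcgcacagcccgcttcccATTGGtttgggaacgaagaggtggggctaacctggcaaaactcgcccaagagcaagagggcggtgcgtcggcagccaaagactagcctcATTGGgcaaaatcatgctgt

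Fatty acid synthesis moved the same way. Of 19 tested members of de novo lipogenesis 6 were lower in KO n3 and 0 higher, with a median log2 fold change of -0.18. When single libraries were left out 4 to 8 were lower, and 4 were lower without the marker-high libraries. Acly, which makes cytosolic acetyl-CoA from citrate, had 899.8, 837, 925 and 889.5 CPM in KO n3 and 1336, 1191, 1254 and 1148 CPM in KO SFA (-0.47, SE 0.062, adjusted p = 0.000201). Scd2, a stearoyl-CoA desaturase that makes monounsaturated fat, had 3139, 2846, 3182 and 2759 CPM in KO n3 and 4555, 4069.8, 4368 and 3977 CPM in KO SFA (-0.51, SE 0.0662, adjusted p = 0.000199). The groups did not overlap for either gene. Elovl6, which elongates palmitate, was lower as well (107 ± 9.12 CPM in KO n3 and 149 ± 13.9 CPM in KO SFA, -0.47, adjusted p = 0.000484). Scd1 had 78407, 81209, 75921 and 70222 CPM in KO n3, against 96919.7, 94551, 107223 and 100619 CPM in KO SFA (-0.39, adjusted p = 0.0105). Those 4 calls were stable. Me1 (-0.29), a source of NADPH, and Acss2 (-0.31), which activates acetate, passed and were kept in 4 and 2 of the 8 fits. The central enzymes Acaca and Fasn did not pass, at -0.15 (SE 0.068) and -0.18 (SE 0.0723). Scd1 and Scd2 are close paralogs, and reads shared by both could have been divided between them in the counting.

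Among 15 tested genes that desaturate and elongate polyunsaturated fat, 3 were lower and 0 higher, with a median of 0.01. Fads2, the delta-6 desaturase at the head of the pathway, had 20.4, 19.1, 16.8 and 21.3 CPM in KO n3 and 29.1, 28.8, 30.6 and 25.7 CPM in KO SFA (-0.56, SE 0.0861, adjusted p = 0.00123). The groups did not overlap and the call was stable. Tecr, the last enzyme of each elongation round, lost its call without 1 library (-0.28, kept in 7 of 8 fits). Fads1, the delta-5 desaturase next to Fads2 on chromosome 19, was kept in 2 of 8 (-0.34, adjusted p = 0.0385). Fads3 did not pass (-0.08, SE 0.049).

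In the list of phospholipid acyl remodelling, which holds the other lysophospholipid acyltransferases, 2 of 26 tested members were lower, Lpcat3 and Acsl3, and 0 higher. Acsl3, an acyl-CoA synthetase of the endoplasmic reticulum and lipid droplets, had 69.4, 74.2, 64.8 and 79 CPM in KO n3 and 131, 112, 129 and 111 CPM in KO SFA (-0.75, SE 0.0782, adjusted p = 1.04e-05). It was the third largest fall among stable calls with a mean of at least 2 CPM, and no KO n3 library reached the lowest KO SFA library. Utp14b, a gene that lies within Acsl3 on chromosome 1 and shares exon bases with it on the same strand, was lower too (13.3 ± 2.43 CPM in KO n3 and 20.4 ± 2.05 CPM in KO SFA, -0.61, adjusted p = 0.00302). Estimated counts can be divided between these 2 genes in more than 1 way, so both values are uncertain.

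**Figure D2:**
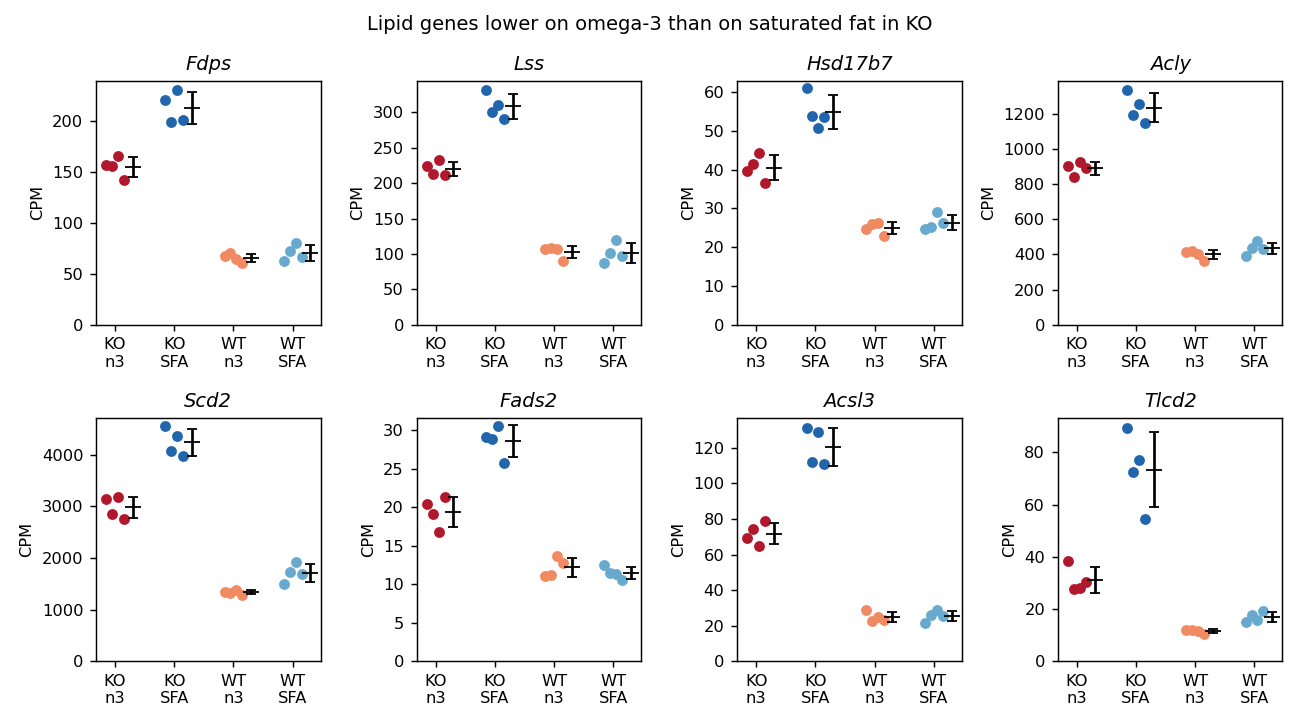
CPM of 8 lipid genes in each library (points) of KO n3, KO SFA, WT n3 and WT SFA, with the mean and SD of each group of 4 beside them. Every vertical axis starts at 0. In each panel all KO n3 libraries lie below all KO SFA libraries, and the WT libraries lie lower than both knockout groups. Tlcd2, Acsl3, Fads2, Scd2 and Lss were among the largest falls, which were named only if KO n3 and KO SFA did not overlap.

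The largest falls outside these lists came from genes of varied function. Podnl1, a leucine-rich proteoglycan gene, had 13, 8.93, 7.74 and 13.6 CPM in KO n3 and 34.9, 23.5, 35.9 and 15.6 CPM in KO SFA (-1.34, SE 0.212, adjusted p = 0.00194). Tlcd2, whose human homolog is known from cell lines to limit polyunsaturated fat in membrane phospholipids, had 38.4, 27.8, 27.9 and 30.4 CPM in KO n3 and 89.3, 72.5, 77.2 and 54.5 CPM in KO SFA (-1.24, SE 0.119, adjusted p = 6.21e-06). For both genes KO SFA replicate 4 was the lowest of its group, yet above every KO n3 library. Rdh11, a retinol dehydrogenase of the endoplasmic reticulum, showed little spread, at 18.2, 16, 17.1 and 17.4 CPM in KO n3 and 26.4, 25.4, 25.9 and 24.3 CPM in KO SFA (-0.57, SE 0.0598, adjusted p = 1.04e-05). Snhg11 (-0.60), named as a small nucleolar RNA host gene and given as protein coding in GENCODE, the transcription factor gene Mecom (-0.52), the adaptor gene Lurap1 (-0.50) and Map1a, a microtubule-associated protein gene (-0.48), fell with stable calls. Exons of Lurap1 and Map1a overlap genes on the opposite strand. Chosen after its values were seen, Mr1, which presents vitamin B metabolites to T cells, also fell stably (-0.47, adjusted p = 1.6e-05).

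A few falls were large but rested on few counts. Cyp1a1, the monooxygenase best known as a target of the aryl hydrocarbon receptor, had 0.272, 0.302, 1.16 and 0.222 CPM in KO n3 and 2.99, 2.26, 6.39 and 3.3 CPM in KO SFA (-2.93, SE 0.57, adjusted p = 0.0101, kept in 7 of 8 fits). It is named after its values were seen, as are Fam50b (-2.80, kept in 6 of 8) and the sodium channel gene Scn2b (-1.60, stable). Fam50b averaged 0.103 ± 0.045 CPM in KO n3 and 0.729 ± 0.363 CPM in KO SFA, and Scn2b 0.674 ± 0.357 CPM in KO n3 and 2.05 ± 0.432 CPM in KO SFA. With Podnl1 and Tlcd2 these were the 5 falls of at least 2-fold.

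Sugar metabolism and antioxidant genes gave few calls. Of 27 tested genes of glucose uptake, glycolysis and insulin signalling 2 were lower. They were Pkm (pyruvate kinase, -0.22) and G6pdx (the NADPH-making first enzyme of the pentose phosphate pathway, 469.9 ± 39 CPM in KO n3 and 578 ± 19.2 CPM in KO SFA, -0.30, adjusted p = 0.01). Of 29 tested NRF2 and oxidative defence genes G6pdx was lower and 2 were higher. Gss, glutathione synthetase, was 1 of them (11.2 ± 0.759 CPM in KO n3 and 8.77 ± 0.323 CPM in KO SFA, 0.35, adjusted p = 0.00224). The extracellular superoxide dismutase Sod3 was the other (483 ± 50 CPM in KO n3 and 387 ± 30.4 CPM in KO SFA, 0.32, adjusted p = 0.00929). All 4 calls were stable. Exons of Gss overlap Acss2, and those of G6pdx overlap Ikbkg, on opposite strands.

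Transcripts of some proteins known to be secreted by adipocytes changed in the tissue. Of 21 tested adipokines 2 were higher and 1 lower. Hp, haptoglobin, the haemoglobin-binding acute-phase protein that adipocytes secrete, had 2165, 2118, 2134 and 2026 CPM in KO n3 and 1489.7, 1259, 1566 and 1140.1 CPM in KO SFA (0.63, SE 0.109, adjusted p = 0.00364). Sfrp5, a secreted inhibitor of WNT5A, had 115, 161, 163 and 110.3 CPM in KO n3 and 66.1, 66.4, 84.8 and 99.5 CPM in KO SFA (0.79, SE 0.145, adjusted p = 0.0061). Both calls were stable with no overlap. Rbp4, retinol binding protein, was lower (455 ± 26.7 CPM in KO n3 and 592 ± 58.7 CPM in KO SFA, -0.38, adjusted p = 0.0161, kept in 5 of 8 fits). Adipoq (0.28, adjusted p = 0.0763), Lep (0.19, adjusted p = 0.22) and adipsin, Cfd (0.52, adjusted p = 0.242), did not pass. Hsd11b1, which turns inactive into active glucocorticoid, rose as well, at 37.7, 48.5, 47.7 and 42.6 CPM in KO n3 and 30.6, 26.8, 31.2 and 28.4 CPM in KO SFA (0.59, SE 0.106, adjusted p = 0.00488).

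Several complement genes, named after their values were seen, were higher in KO n3. C3, the central component, had 512, 599.7, 446 and 587 CPM in KO n3 and 366, 407, 357 and 385 CPM in KO SFA (0.50, SE 0.0981, adjusted p = 0.00952). C4b (787 ± 49.6 CPM in KO n3 and 582 ± 33.9 CPM in KO SFA, 0.44, adjusted p = 0.000328), Cfb (0.35, adjusted p = 0.006) and C1ra (0.27, adjusted p = 0.006) were also stable. Cfp, properdin, was kept in 7 of 8 fits (0.50). In contrast Masp1, a protease of the lectin pathway, was lower (1.97 ± 0.316 CPM in KO n3 and 3.18 ± 0.53 CPM in KO SFA, -0.69, kept in 7 of 8 fits). C4b has a near-identical copy and Cfb overlaps a predicted gene on its strand, so their counts are uncertain. Of acute-phase genes, also named after their values were seen, Lbp, lipopolysaccharide binding protein, rose stably (0.32, adjusted p = 0.00405). Lrg1 was kept in 6 of 8 fits (0.40).

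**Figure D3:**
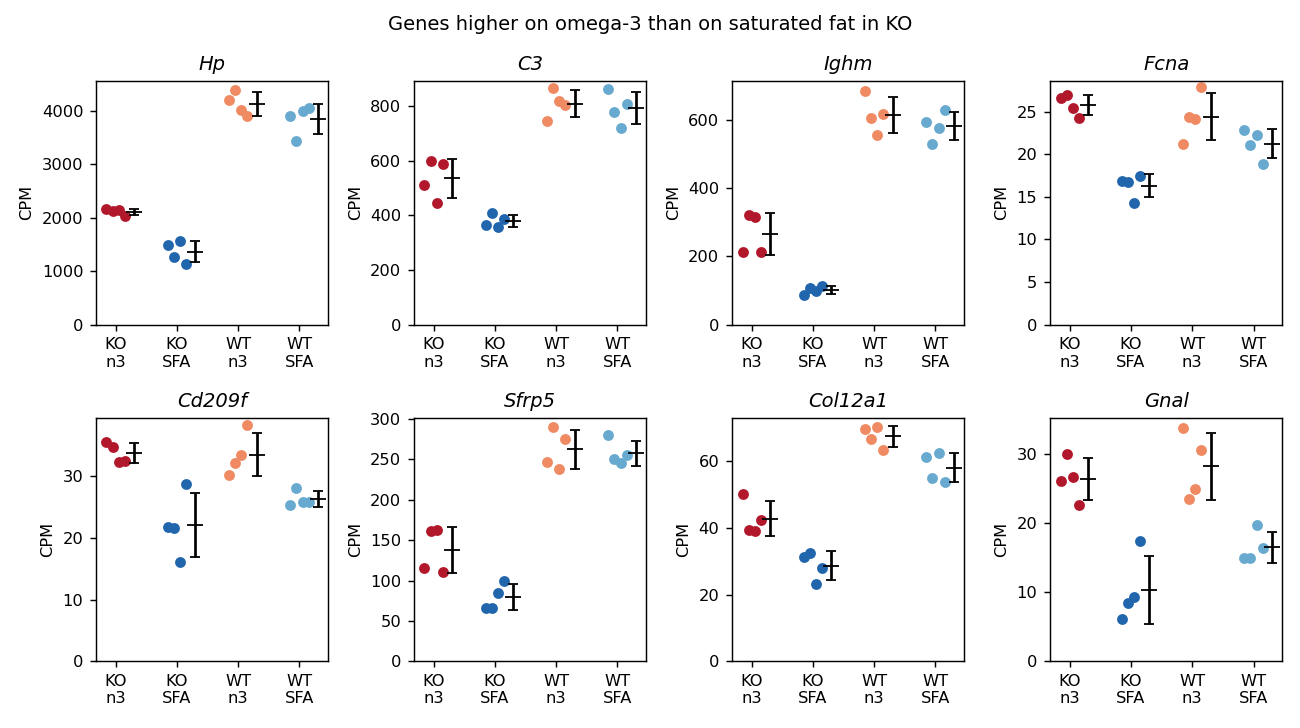
CPM of 8 genes higher in KO n3 than in KO SFA, in each library (points) of KO n3, KO SFA, WT n3 and WT SFA, with the mean and SD of each group of 4 beside them. Every vertical axis starts at 0. All KO n3 libraries lie above all KO SFA libraries in each panel, and Hp, C3, Ighm, Sfrp5 and Col12a1 are higher still in both WT groups. Gnal, Sfrp5, Fcna, Hp, Cd209f and Col12a1 were among the largest rises, which were named only if KO n3 and KO SFA did not overlap.

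A few genes known from macrophages were higher, while most macrophage markers did not pass. Fcna, ficolin A, a lectin of macrophages, had 26.6, 26.9, 25.4 and 24.3 CPM in KO n3 and 16.9, 16.7, 14.3 and 17.4 CPM in KO SFA (0.66, SE 0.111, adjusted p = 0.00302). The C-type lectins Cd209f (35.6, 34.7, 32.4 and 32.5 CPM in KO n3; 21.8, 21.7, 16.1 and 28.8 CPM in KO SFA; 0.61, adjusted p = 0.0109) and Cd209b (0.57, adjusted p = 0.0032) were stable too, though they belong to a family of close paralogs. Cd163, the scavenger receptor for haptoglobin bound to haemoglobin, had 177, 182, 167 and 168 CPM in KO n3 and 112, 125, 83.8 and 115 CPM in KO SFA (0.67, SE 0.137, adjusted p = 0.0153) and was kept in 5 of 8 fits. Of the 15 tested macrophage markers Cd163 was the 1 call, all 15 fold changes were positive and the median was 0.32. The mean log2 CPM of the list was 5.59 to 6.01 in KO n3 and 5.26 to 5.67 in KO SFA. The pan-macrophage markers Adgre1 (0.14, adjusted p = 0.741) and Cd68 (0.10, adjusted p = 0.812) did not pass, nor did Folr2 (0.39, adjusted p = 0.0687) and Mrc1 (0.46, adjusted p = 0.115) of the same list. Outside it, Timd4 (0.01, adjusted p = 0.99), Cd209g (0.34, adjusted p = 0.25), Lyve1 (0.54, adjusted p = 0.0557) and F13a1 (0.44, adjusted p = 0.0817), also known from resident macrophages and chosen after their values were seen, did not pass. Also outside the list, known from macrophages and chosen after their values were seen, Wfdc17, Maf, Cbr2 and Clec10a were called higher. Their log2 fold changes were 0.56 (adjusted p = 0.0188), 0.26 (0.0298), 0.40 (0.0467) and 0.38 (0.045). These calls were kept in 6, 5, 5 and 4 of the 8 fits. The list of lipid-associated macrophages had 0 of 14 called with a median of -0.06. In bulk tissue more cells of a type and more RNA per cell cannot be told apart.

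Other immune signals were uneven. Ighm, the heavy chain constant gene of IgM, named after its values were seen, had 213, 322, 316 and 213 CPM in KO n3 and 87.1, 108, 100.2 and 112 CPM in KO SFA (1.39, SE 0.125, adjusted p = 4.19e-06), the smallest p of the contrast and a stable call. None of the other 14 B cell markers tested was called. Cd79a and Pax5 were at or below a mean of 2.40 CPM in both groups, and 11 of the 15 members of the list had negative fold changes. Jchain was at 3.15 CPM in KO n3 and 1.78 CPM in KO SFA (adjusted p = 0.35). Of 8 mast cell markers 1 was called. It was the tryptase gene Tpsb2 (14.8 ± 0.45 CPM in KO n3 and 9.67 ± 1.9 CPM in KO SFA, 0.62, kept in 4 of 8 fits). The median of the list was 0.49. Of 8 tested neutrophil and monocyte markers 1 was called. It was Mmp9, the gene of a gelatinase of neutrophils (0.99, adjusted p = 0.0123, kept in 6 of 8 fits). The median of that list was 0.28, with 2 negative fold changes. Its mean log2 CPM overlapped between the groups, at 0.66 to 1.01 in KO n3 and 0.42 to 0.96 in KO SFA. Of 26 tested interferon response genes 22 had negative fold changes (median -0.18). The 1 call was Irf1 (54.5 ± 2.99 CPM in KO n3 and 67.9 ± 6.11 CPM in KO SFA, -0.32, kept in 2 of 8 fits). Their mean log2 CPM was 3.82 to 4.05 in KO n3 and spread from 3.65 to 4.32 in KO SFA, so the groups overlapped.

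Matrix genes rose in part. Of 35 tested collagen and matrix genes 5 were higher and 0 lower in KO n3, 32 fold changes were positive and the median was 0.26. When single libraries were left out 2 to 7 were called higher, and 2 were without the marker-high libraries. Col12a1, a collagen that binds along fibrils, had 50.2, 39.5, 39 and 42.5 CPM in KO n3 and 31.4, 32.6, 23.1 and 27.9 CPM in KO SFA (0.58, SE 0.104, adjusted p = 0.00573). Dcn, the small proteoglycan decorin, had 679.9, 623, 589.8 and 599 CPM in KO n3 and 485, 541, 430.2 and 532 CPM in KO SFA (0.33, SE 0.0621, adjusted p = 0.00716). These 2 calls were stable, and Mmp3 (0.50), Col14a1 (0.45) and Loxl1 (0.42) were kept in 6, 4 and 3 of the 8 fits. KO SFA replicate 3 was the lowest of the 8 libraries for all 5 genes. Its mean log2 CPM over the list was 7.83, against 8.18 to 8.22 in the other KO SFA libraries and 8.20 to 8.48 in KO n3. Fibromodulin, Fmod, outside the list, rose stably (16, 12.4, 16.7 and 14.7 CPM in KO n3; 9.21, 10.2, 7.8 and 9.31 CPM in KO SFA; 0.71, SE 0.103, adjusted p = 0.000587), as did osteoglycin, Ogn, named after its values were seen (0.41, adjusted p = 0.00141).

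The largest rise by the rule for named genes was that of Gnal, which encodes the stimulatory G protein subunit first known from olfactory neurons. Gnal had 26.1, 30.1, 26.7 and 22.7 CPM in KO n3 and 6.1, 8.42, 9.35 and 17.5 CPM in KO SFA (1.35, SE 0.23, adjusted p = 0.00398). KO SFA replicate 4 was the highest of its group and stayed below every KO n3 library. The phosphatase gene Dusp15 (10.9 ± 1.54 CPM in KO n3 and 6.53 ± 0.728 CPM in KO SFA, 0.74, adjusted p = 0.00156), Anxa8, a phospholipid-binding annexin gene (4.56 ± 0.557 CPM in KO n3 and 2.87 ± 0.451 CPM in KO SFA, 0.67, adjusted p = 0.006), and Clstn2, a calsyntenin gene of the cadherin superfamily (0.62, adjusted p = 0.00287), rose stably at low levels. Exons of Gnal overlap Mppe1 on the opposite strand. Rises of at least 2-fold were those of Gnal, Ighm, Fgf14 (0.5 ± 0.0945 CPM in KO n3 and 0.147 ± 0.0518 CPM in KO SFA, 1.75) and a predicted gene at under 1 CPM, the last 2 named after their values were seen.

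**Figure D4:**
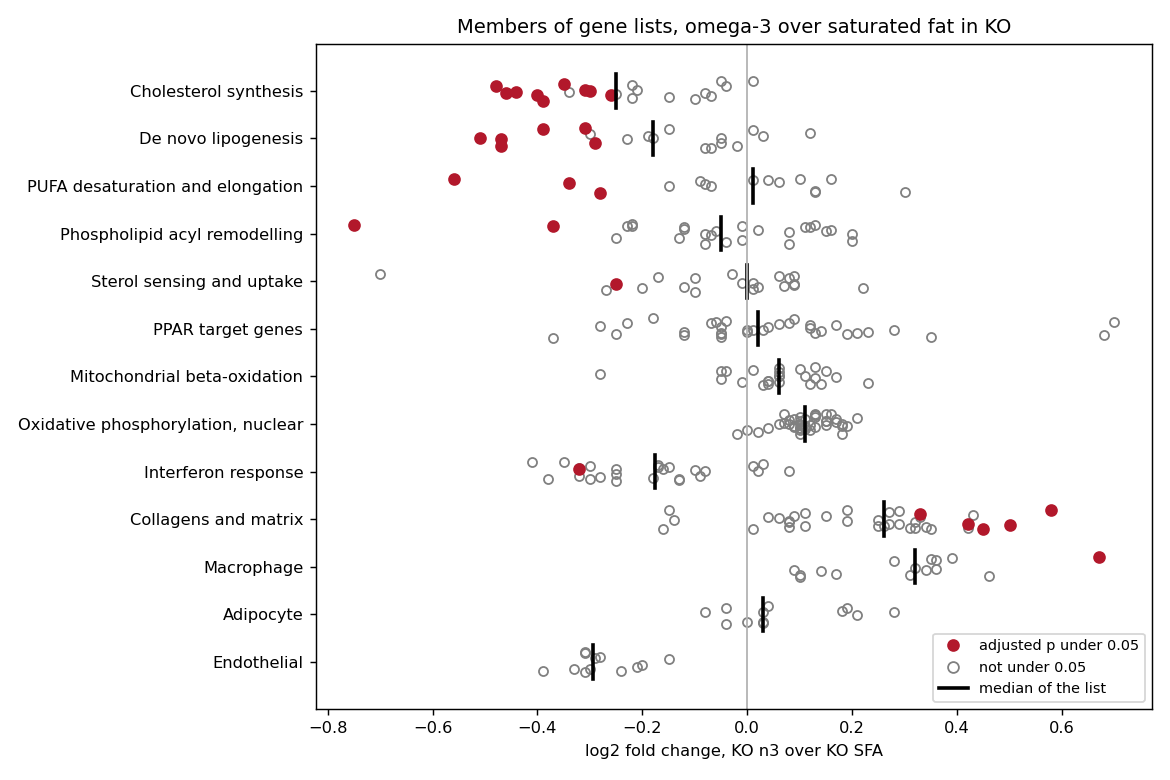
Log2 fold change of KO n3 over KO SFA (horizontal axis) for each tested member of 13 gene lists (one line each). Red points have an adjusted p under 0.05, open points do not, and the black bar is the median of the list. Calls of cholesterol synthesis and lipogenesis lie left of 0 and those of matrix and macrophage genes right of it, while the median is -0.25 for cholesterol synthesis and 0.03 for adipocyte markers.

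Fat burning and other programmes gave no or single calls. None of 34 PPAR target genes (median 0.02), 24 genes of mitochondrial and 22 of peroxisomal beta-oxidation (0.06 and 0.00), 19 of lipolysis (0.03), 16 of fatty acid uptake (0.00) or 21 of triglyceride synthesis (0.01) was called by edgeR with all libraries. Cpt1a, the gate of mitochondrial fatty acid entry, had 200.2 ± 5.8 CPM in KO n3 and 206 ± 9.98 CPM in KO SFA (-0.04, SE 0.0522), and Angptl4 589.6 ± 56.1 CPM in KO n3 and 542 ± 45.8 CPM in KO SFA (0.12, SE 0.0739). Ucp1, the uncoupling protein of thermogenic fat, stayed under 1 CPM, at 0.931, 0.675, 0.705 and 0.621 CPM in KO n3 and 0.334, 0.29, 0.426 and 0.26 CPM in KO SFA. The groups did not overlap, but the difference did not pass (1.15, SE 0.535, adjusted p = 0.289). Of 42 nuclear genes of oxidative phosphorylation 0 were called, although 41 had positive fold changes of at most 0.21 (median 0.11). Without KO n3 replicate 4, 15 were called higher. Idh2 (0.29, kept in 6 of 8 fits) was the 1 call among 23 genes of the tricarboxylic acid cycle. Slc40a1, the iron exporter (0.61, kept in 4 of 8), was that among 22 of lipid peroxide handling and ferroptosis. Pla2g2d, a secreted phospholipase (0.58, kept in 4 of 8), was that among 32 of eicosanoid turnover. The omega-3 receptor gene Ffar4 did not pass (0.05, SE 0.133), nor did any of 29 tested cytokine and chemokine genes, 25 of the unfolded protein response, 20 of the circadian clock or 27 of the cell cycle.

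In wild-type tissue the same diets gave fewer calls with all libraries. The contrast of WT n3 with WT SFA, which shares no library with that of the knockout, called 22 genes (0.144%). This count was 1 to 126 when single wild-type libraries were left out, which overlaps the 80 to 859 of the knockout, and DESeq2 called 339 in wild type and 587 in the knockout. Over all genes tested the median size of the log2 fold change was 0.0789 in the knockout and 0.0787 in wild type. Of the 223 genes called in the knockout, 143 (64.1%) had the same sign in wild type, beside 45.9% of all genes. Each set of calls was larger in the genotype that chose it. The median size of the 223 was 0.373 in the knockout and 0.0904 in wild type, and that of the 22 was 0.148 in the knockout and 0.401 in wild type, so these medians say nothing of which genotype responded more. Scd1 and Scd2 were called in both. Scd1 was at 76439.6 ± 4674 CPM in KO n3 and 99828 ± 5526 CPM in KO SFA, and at 31412 ± 1878 CPM in WT n3 and 52752 ± 2099 CPM in WT SFA. Its log2 fold change was -0.39 in the knockout and -0.75 in wild type. This difference did not pass (0.36, SE 0.109, adjusted p = 0.0954). Scd2 fell by 0.51 on that scale in the knockout and by 0.35 in wild type (difference -0.15, adjusted p = 0.409). Cyp1a1 was also low in WT n3 (0.256 ± 0.1 CPM) beside WT SFA (1.73 ± 0.466 CPM), without passing there (-2.75, adjusted p = 0.065).

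The difference of the diet effects, KO minus WT, was called in 125 genes (0.819%), 39 positive and 86 negative, and 40 of these were among the 223. The knockout contrast is a term of this difference, so genes called in the knockout are favoured here. The 40, and the differences of such genes below, are thus no independent support for an effect particular to the knockout. A fit without the 100 most abundant genes, which were then neither scaled nor tested, called 85 differences, 37 positive and 48 negative. The count was fragile. It was 1300 without KO n3 replicate 4, 427 without KO SFA replicate 4, 349 without WT n3 replicate 2 and 316 without WT SFA replicate 1. It was 8 to 74 without any other single library of these 4 groups, and 5 without the marker-high libraries. Among lipid genes the difference was called for Acsl3, at 71.8 ± 6.13 CPM in KO n3 and 121 ± 10.9 CPM in KO SFA, and 24.9 ± 2.69 CPM in WT n3 and 25.5 ± 2.95 CPM in WT SFA (-0.71, SE 0.114, adjusted p = 0.00993). It was also called for Fads2 (-0.65, adjusted p = 0.0279), Lss (-0.51, adjusted p = 0.0329) and Rdh11 (-0.43, adjusted p = 0.0319). Apoc1, an apolipoprotein gene in the list of fatty acid uptake, chosen after its values were seen, had a positive difference (0.79, adjusted p = 0.018). It fell in wild type (-0.64, adjusted p = 0.012) and did not pass in the knockout (0.15, adjusted p = 0.484). For Fdps (-0.35, adjusted p = 0.0587) and Acly (-0.36, adjusted p = 0.0529), it did not pass. Fdps had 65.6 ± 4.09 CPM in WT n3 and 70.7 ± 7.99 CPM in WT SFA, and Acly 401 ± 25.4 CPM in WT n3 and 434 ± 33.7 CPM in WT SFA.

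Among genes that rose, the difference was called for Ighm (1.31, SE 0.173, adjusted p = 0.00305), at 615 ± 53.2 CPM in WT n3 and 582 ± 41.8 CPM in WT SFA. It was also called for Cfb (0.49, adjusted p = 0.0242), C4b (0.35, adjusted p = 0.0475), Anxa8 (0.80, adjusted p = 0.0338), Gss (0.46, adjusted p = 0.0128) and Naaa, an acid amidase gene (0.39, adjusted p = 0.0149). Hp, at 4124 ± 216 CPM in WT n3 and 3841 ± 280.3 CPM in WT SFA (0.53, adjusted p = 0.0856), and C3 (0.47, adjusted p = 0.087) did not pass. Some of the smallest p of this test belonged to genes with a negative fold change in the knockout and a positive one in wild type. They were Mecom (-0.84, adjusted p = 0.00437), Map1a (-0.68, adjusted p = 0.00437), Scarb1 (-0.51, adjusted p = 0.0128), Cldn15, a claudin gene (-0.43, adjusted p = 0.0128), and Sorbs2, an adaptor of the actin skeleton (-0.58, adjusted p = 0.0128). Of these Sorbs2 alone was called in wild type (0.40, adjusted p = 0.012), and it was not called in the knockout. Endothelial markers had the same pair of signs. All 12 had negative fold changes in the knockout (median -0.30, 0 called) with a median of 0.33 in wild type, and the difference was called for 3 of them. The mean log2 CPM of the endothelial list was 6.20 to 6.70 in KO n3, 6.44 to 6.83 in KO SFA, 6.38 to 6.79 in WT n3 and 6.20 to 6.52 in WT SFA. Its part in these results was not tested.

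**Figure D5:**
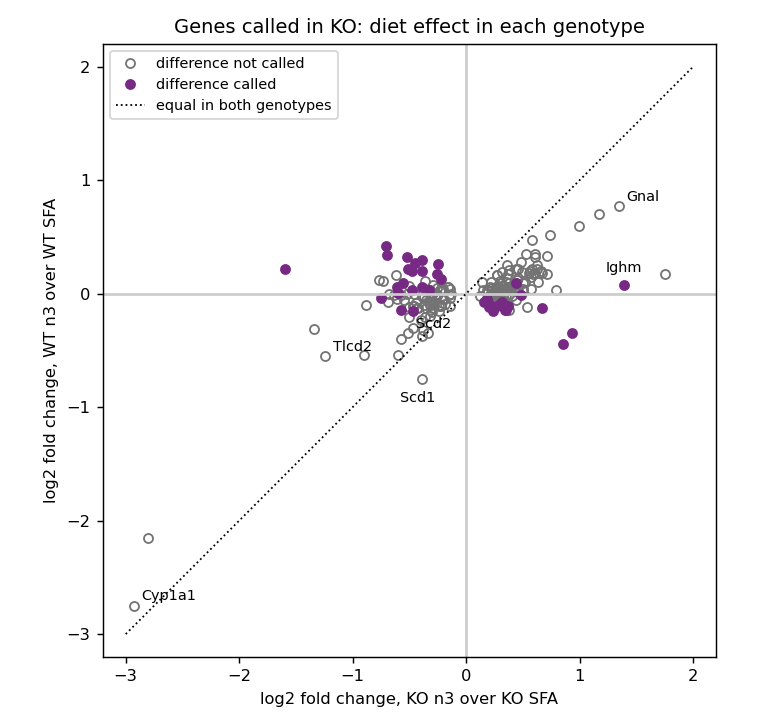
Log2 fold change of omega-3 over saturated fat for the 223 genes called in the knockout, in knockout tissue (horizontal axis) and in wild-type tissue (vertical axis). Purple points have a called difference between the genotypes, and the dotted line marks equal effects. Most points lie near 0 on the vertical axis, where the median size is 0.0904, and Scd1 and Cyp1a1 are among the few with a large wild-type effect.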

How the data were processed

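Per the labels, polyadenylated RNA of iWAT was sequenced with paired ends. The submitters' processing notes name fastp 0.23.2, Salmon and mm10, without options or annotation. The authors deposited estimated counts per gene and TPM. Here estimated counts were rounded and filtered (filterByExpr, minimum count 10, minimum total 15), leaving 15259 of 35727 genes with 99.98% of counts. edgeR 4.0.16 (R 4.3.3; TMM, robust quasi-likelihood fit, 6 group means, 24 libraries, 18 residual degrees of freedom) gave fold changes and Benjamini-Hochberg adjusted p-values; SE is the size of the log2 fold change over the root of F. Symbols of 34932 genes matched GENCODE M21.

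The comparison, gene lists, tests and alternatives were chosen with earlier results of these data known. Named genes were, besides Lpcat3, Scd1 and Ucp1, the 12 largest rises and falls among stable calls without overlap at an average log2 CPM of 1 or more, the 3 smallest p of each list with 3 or more calls, and the 8 smallest p of the difference between genotypes, leaving out predicted genes and immunoglobulin segments; others are said to be chosen after their values were seen, or belong to a list. Some genes that the rule names are not reported here. Alternatives were RLE scaling, a fit without the 100 most abundant genes, no filter, only the groups compared, a replicate block and marker covariates. Others were DESeq2 1.42.0, limma 3.58.1 on log2(TPM + 1) or log2(TPM + 0.1), a threshold of 0.01 and leaving out libraries. The fit was tested on simulated data.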

Additional observations from a re-analysis of the deposited data

Results flagged for a closer look

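Among 186 groups of 4 libraries examined (named genes and lists in KO n3 and KO SFA), 7 held a library whose gap to its nearest neighbour took a share of the group's range above Dixon's critical value; chance gives about 1 in 20. In KO n3 the gaps were 0.93 for Dusp15 (replicate 3 high), 0.882 for Utp14b (replicate 4 high) and 0.832 for Scarb1 (replicate 4 high). In KO SFA they were 0.849 for Snhg11 (replicate 3 high), 0.956 for Sorbs2 (replicate 2 high), 0.942 for the mitochondrially encoded list (replicate 3 high) and 0.896 for the collagen and matrix list (replicate 3 low).

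The effect of omega-3 against saturated fat differed between KO and WT by edgeR's test of the difference for 14 of the named genes. On the log2 scale, KO minus WT, it was 0.80 for Anxa8, 0.46 for Gss and 0.39 for Naaa. It was -0.84 for Mecom, -0.71 for Acsl3, -0.68 for Map1a, -0.67 for Utp14b, -0.65 for Fads2, -0.61 for Snhg11, -0.58 for Sorbs2, -0.51 for Lss and Scarb1, and -0.43 for Rdh11 and Cldn15. Of these, Sorbs2 was not called in KO alone. The choice of named genes favoured such differences. Some, such as Scarb1 and Map1a, were named because this same test gave them the smallest p. The others were named from the KO contrast, which is a term of the difference. Over all genes tested the difference was called in 125 (0.819%). The 14 thus do not show how common such differences are.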

How the results depend on the processing

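For KO n3 against KO SFA, 223 genes were called, 210 with RLE scaling, 165 without a filter and 203 by limma on log2(TPM + 1). A fit that left the 100 most abundant genes out of scaling and testing called 213. The count moved to 31 in a fit of these 8 libraries alone, 587 with DESeq2 (220 of the 223 among them), 64 at a threshold of 0.01 and 60 without the marker-high libraries, an alternative chosen after seeing the data; without single libraries it was 80 to 859. In WT the 22 calls became 339 with DESeq2, 13 with the mammary gland covariate, 8 by limma without a filter, 1 at 0.01 and 1 to 126 without single libraries. The 125 differences became 652 with DESeq2, 56 without a filter, 6 with only the groups compared, 14 with the skeletal muscle and 21 with the mammary gland covariate, 27, 11 and 9 by limma on log2(TPM + 1), log2(TPM + 0.1) and without a filter, 4 at 0.01, 5 without the marker-high libraries and 8 to 1300 without single libraries. Of the list medians, that of lipolysis moved to -0.09 without the marker-high libraries. With the replicate block, 234 genes were called in KO, 20 in WT and 70 for the difference. Same-numbered KO libraries correlated at 0.196, -0.00223, 0.106 and -0.0896, so the numbers were not treated as pairs. Named genes kept direction and side of the threshold in 881 refits and lost the call in 80, none reversing. Part of the 881 was fixed by the choice of genes. The largest rises and falls were named only if KO n3 and KO SFA did not overlap and the call held without any 1 KO library. Genes not called at the start, such as Ucp1, also count as kept while they stay uncalled. The 881 is thus no independent measure of robustness. In the fit of the groups alone 25 of 44 lost the call, and 23 of 44 did without the marker-high libraries. Stable thus means only stable to leaving out 1 library. The causes were not tested.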
